A study of Mus musculus with 6 samples.

Results

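The Hox genes encode homeodomain transcription factors that tell cells where they lie along the body axis. They were followed here in Nestin-GFP-positive cells of newborn mouse skin and its fat layer. Members were the rows whose identifier maps to a protein-coding symbol of the form Hoxa, Hoxb, Hoxc or Hoxd plus a number. This gave 38 genes of 37991, with 11 in the HoxA cluster, 10 in HoxB, 9 in HoxC and 8 in HoxD. The reference annotation names 39 such genes, and the remaining one, Hoxd4, matched no row by identifier and was not analysed here.

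The mutant cells came from 3 mice that carried the Nestin-GFP reporter and the Nestin-Cre recombinase. On 1 of the alleles of Pdgfra they carried the change labelled [S]D842V, of which D842V keeps this receptor active. The label does not spell out the [S]. The control cells came from 3 mice with the Nestin-GFP reporter alone, so the recombinase and the allele are compared together. All mice were 3 days old, and GFP-positive single cells were sorted from digested dermis together with its white fat layer, once the epidermis and hair follicles had been taken off. The Nestin promoter drives the reporter, and by its name the recombinase too, so both mark cells with Nestin activity and not 1 cell type. The sources used here speak of the whole skin and give no body region for any sample.

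Vertebrate Hox genes lie in 4 clusters, and genes at matching places in different clusters form paralog groups numbered 1 to 13. Genes at the 3′ end of a cluster (low numbers) are switched on early and reach far towards the head, while those at the 5′ end (high numbers) are restricted to the rear trunk, the tail, the outgrowing limbs and the genital region. Fibroblasts of adult human skin are known to keep a Hox pattern that matches the site they came from. Hox proteins bind DNA together with cofactors of the TALE class, Pbx and Meis, and their clusters are held silent by Polycomb complexes and opened in response to retinoic acid, among other signals.

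The start regions of 3 members described at length are shown. Hoxa2 was the called member that rose, Hoxd11 the called member with the largest fall, and Hoxd13 a member whose libraries differed widely within both groups. Each is the 250 bases before the RefSeq start in build GRCm38.p6, which is not the build of the counts, written 5′ to 3′ on the gene's strand. Capitals mark matches to any of 4 short motifs searched on both strands.
Hoxa2, chr6:52164832-52165081, minus strand: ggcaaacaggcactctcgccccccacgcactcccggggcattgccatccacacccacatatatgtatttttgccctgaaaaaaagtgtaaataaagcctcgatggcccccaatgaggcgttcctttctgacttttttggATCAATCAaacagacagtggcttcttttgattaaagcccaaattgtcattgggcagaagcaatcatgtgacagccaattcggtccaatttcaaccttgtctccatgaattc
Hoxd11, chr2:74682073-74682322, plus strand, the more 3′ of 2 RefSeq starts: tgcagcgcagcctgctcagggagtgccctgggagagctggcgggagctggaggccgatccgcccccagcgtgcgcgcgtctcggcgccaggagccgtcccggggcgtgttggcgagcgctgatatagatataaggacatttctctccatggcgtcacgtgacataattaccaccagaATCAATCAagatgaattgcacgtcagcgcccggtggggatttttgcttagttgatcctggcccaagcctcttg
Hoxd13, chr2:74667975-74668224, plus strand: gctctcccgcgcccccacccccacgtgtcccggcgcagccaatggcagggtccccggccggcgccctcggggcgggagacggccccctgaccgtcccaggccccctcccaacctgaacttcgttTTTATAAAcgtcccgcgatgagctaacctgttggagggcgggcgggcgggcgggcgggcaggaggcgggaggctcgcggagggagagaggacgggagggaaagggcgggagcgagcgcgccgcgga

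The windows of Hoxa2 and Hoxd11 each held 1 match to TGATTNAT, the composite site that a Hox protein reads together with Pbx. In both genes the matched letters on the gene's strand were ATCAATCA. They lay 111 to 104 bases before the start of Hoxa2 and 73 to 66 bases before that of Hoxd11. Of all 32851 RefSeq windows of this length, 2.82% held this motif, and 2 of the 23 windows of the 21 members with an entry did. The Hoxd13 window held TATAAA on both strands in overlapping positions, a motif found in 12.4% of all windows and in 3 of the 23. TTTATG, letters read by the Cdx factors that regulate Hox genes, was in 10.8% of all windows and 4 of the 23, and AGGTCA, the core letters of nuclear receptor sites, in 14% and 5 of the 23. Neither was found in the 3 windows shown, which says only that these letters are not there.

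Gene counts per library ran from 15110824 to 18792939 in mutants and from 11912469 to 15839701 in controls, and the members took 3653 to 4445 counts in mutants and 3418 to 4703 in controls. Levels are given as CPM, the usual read counts scaled to library size, here after TMM, and a count of 0 allows up to 3 counts, or 0.16 to 0.252 CPM of the library total, for counting error only. Within groups the libraries differed beyond counting noise (chi-square over its degrees of freedom 4.73 to 13.3), so none was counted as a copy of another. With 3 libraries a group the smallest exact two-sided permutation p is 0.1, and the gene tests therefore pooled information on spread over all genes. The series' title calls the cells pericytes, and all 13 pericyte markers looked at were detected, with Rgs5 the most abundant at 185.2 CPM in mutants and 306.0 CPM in controls. Markers of other cell types were detected too, and none of any list was at 0 in all libraries. Over all tested genes 8.63% were called higher and 9.13% lower, and the counts for short lists below are to be read beside these shares. Of the pericyte markers 2 rose and none fell, with Kcnj8 the called gene of smallest adjusted p. Of 14 fibroblast and dermal papilla markers 1 rose and 4 fell (Col3a1 the most abundant, Pdgfra of smallest adjusted p). Pdgfra is itself the gene altered in the mutants, so an effect of the allele on its own reads and a change in fibroblasts cannot be told apart. Of 8 smooth muscle markers none rose and 2 fell (Acta2 and Smtn). Of 12 skeletal muscle markers 9 rose and none fell (Actc1 and Cdh15), of 12 endothelial markers 6 rose and none fell (Cdh5 and Lyve1), and of 12 keratinocyte and hair follicle markers 5 rose and none fell (Krt5 and Krt15). Of 7 tested adipocyte markers 1 rose and none fell (Lpl and Fabp4), and of 12 tested blood cell markers 3 rose and 2 fell (Mrc1 and Tpsb2). Of 8 Schwann cell markers none rose and 1 fell, and of 6 melanocyte markers none rose and 1 fell (Dct and Mitf). In bulk RNA, fewer cells of a type and less RNA per cell cannot be told apart.

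The expressed members reached from the 3′ end of the clusters to paralog group 10, with Hoxc13 beyond. Groups 5 to 8 held the largest share of the summed level, much of it from 1 gene, Hoxd8. A member counted as expressed where it had at least 1 CPM in every library of a group, and 25 of 38 members met this, 24 of them in both groups. In HoxA the expressed members were Hoxa2, Hoxa3, Hoxa5, Hoxa6, Hoxa7, Hoxa9 and Hoxa10. In HoxB they were Hoxb2 to Hoxb7 and Hoxb9, and in HoxC Hoxc4 to Hoxc6, Hoxc8 to Hoxc10 and, in controls alone, Hoxc13. In HoxD they were Hoxd1, Hoxd3, Hoxd8 and Hoxd9. The other 13 members lay mostly towards the cluster ends, among them Hoxb1, Hoxa11, Hoxc11, Hoxc12, Hoxd10 to Hoxd13, Hoxa13 and Hoxb13. The count was 14 at a minimum of 5 CPM.

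**Figure D1:**
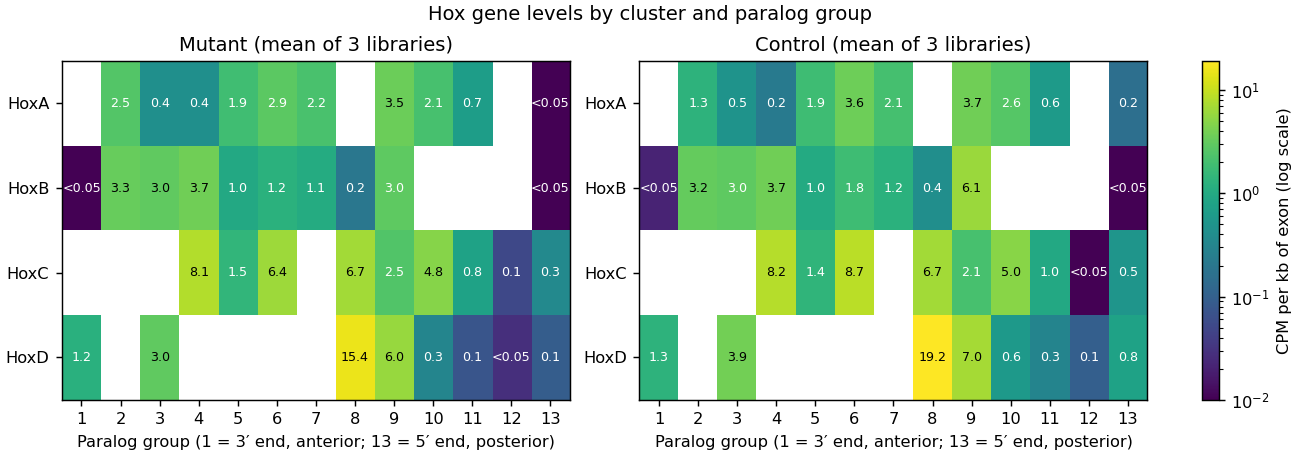
Mean level of Hox genes in CPM per kb of exon, on a logarithmic colour scale, by cluster (rows) and paralog group (columns), in mutant cells (left) and control cells (right), 3 libraries each. White squares hold no gene, no matched row (Hoxd4) or a value that is not shown, and the lowest values share the darkest colour. Hoxd8 is the brightest square in both panels, at 15.4 in mutants and 19.2 in controls.

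Levels of different genes were compared per kb of annotated exon. Hoxd8, a gene of the middle trunk, was the highest member, at 15.4 ± 3.08 CPM per kb in mutants and 19.2 ± 2.94 CPM per kb in controls (SD, n = 3 each). Hoxc4 had 8.1 ± 0.332 CPM per kb in mutants and 8.23 ± 0.553 in controls, and Hoxc6 had 6.38 ± 0.205 in mutants and 8.73 ± 0.536 in controls. Hoxc8 had 6.73 ± 0.809 CPM per kb in mutants and 6.66 ± 0.565 in controls, and Hoxd9 had 5.98 ± 0.645 in mutants and 6.99 ± 0.492 in controls. In controls Hoxc4 and Hoxc6 differed by less than 1 SD, and so did Hoxc8 and Hoxd9. The leading HoxB member in controls, and over all libraries together, was Hoxb9, with 2.97 ± 0.198 CPM per kb in mutants and 6.09 ± 1.88 in controls. In mutants Hoxb4 led, at 3.7 ± 0.428 CPM per kb, and Hoxb2 and Hoxb3 were also above Hoxb9. Hoxa9 led HoxA, with 3.51 ± 0.987 CPM per kb in mutants and 3.7 ± 1.19 in controls. The lengths come from a later annotation, and with the longest transcript of each gene in place of all its exons 9 of the 10 highest members were shared.

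HoxC and HoxD together held most of the summed Hox level per kb. HoxC took 34.4% ± 2.5 in mutants and 32.2% ± 0.55 in controls, and HoxD 28.8% ± 4.6 in mutants and 31.6% ± 2.0 in controls. HoxB took 18.1% ± 2.1 in mutants and 20.0% ± 5.2 in controls, and HoxA 18.7% ± 4.1 in mutants and 16.2% ± 3.1 in controls. Libraries of both groups overlapped for every cluster. By paralog group, groups 5 to 8 held 44.5% ± 1.5 in mutants and 46.1% ± 1.2 in controls, and groups 9 to 13 held 26.7% ± 2.5 in mutants and 29.1% ± 2.9 in controls (SD, n = 3 each for all shares). Groups 1 to 4 held 28.7% ± 1.1 in mutants and 24.8% ± 2.7 in controls, where the lowest mutant library had 27.6% and the highest control library 26.7%. Hoxd8 alone gave 15.4 of the 40.3 CPM per kb of groups 5 to 8 in mutants and 19.2 of the 48.1 in controls. Groups 1 to 4, counted without Hoxd4, summed to 26.0 CPM per kb in mutants and 25.8 in controls. Groups 9 to 13 summed to 24.2 CPM per kb in mutants and 30.5 in controls. The members summed to 245.2, 258.7 and 234.7 CPM in mutant replicates 1 to 3, against 260.6, 286.8 and 301.1 CPM in control replicates 1 to 3. All mutant sums lay below all control sums, and these sums were not tested.

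**Figure D2:**
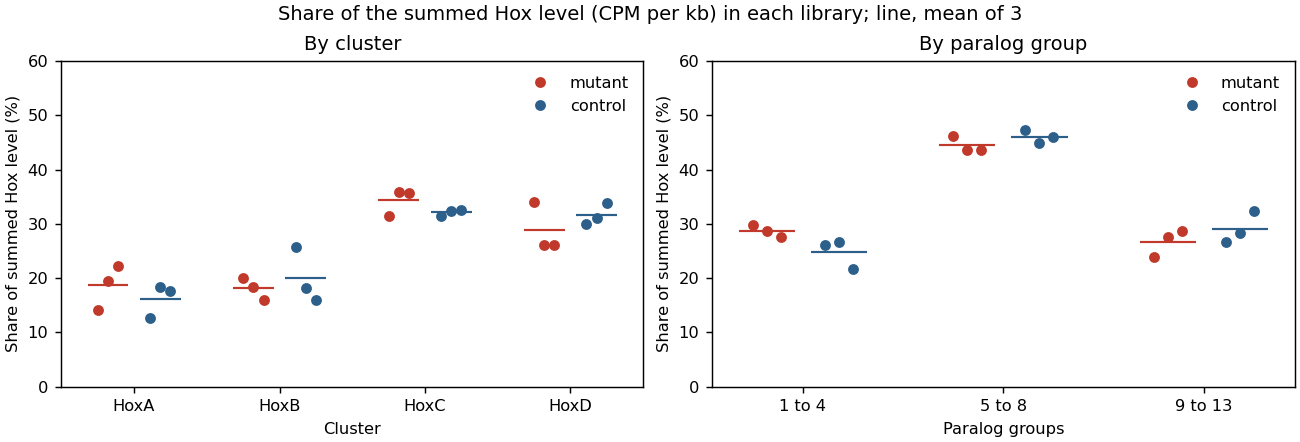
Share of the summed Hox level (CPM per kb of exon, in percent) held by each cluster (left panel) and by each range of paralog groups (right panel), with 1 point per library and a line at the mean of 3, mutant points left of control points. Paralog groups 5 to 8 hold the largest share in all 6 libraries, between 43.7% and 47.3%, with Hoxd8 the largest single part of it.

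The 3′ members, which mark the hindbrain and neck level in the embryo, included Hoxc4, the highest of them per kb. Hoxc4 had 20.2, 21.8 and 20.4 CPM in mutant replicates 1 to 3, against 19.9, 22.7 and 20.9 CPM in control replicates 1 to 3. Its highest library was 1.14 times its lowest, the smallest such ratio of any tested member. Hoxb4, known for its part in blood stem cell growth, had 9.6, 10.5 and 8.34 CPM in mutants and 8.39, 11.1 and 9.28 CPM in controls. Hoxb2, a hindbrain regulator at the anterior end of the HoxB range, had 13.4, 12.2 and 9.29 CPM in mutants and 12.7, 11.0 and 10.2 CPM in controls. The groups overlapped for all these genes. Hoxd1, at the anterior end of the HoxD range, had 2.21, 2.28 and 2.27 CPM in mutants and 1.28, 2.35 and 3.78 CPM in controls, so the control libraries spread widely around the mutant ones. Hoxb1, the most anterior gene of its cluster, was at 0 in all mutant libraries and reached at most 0.0839 CPM in controls. Hoxd3, after Hoxd8 and Hoxd9 in level per kb within HoxD, had 15.4, 11.4 and 11.4 CPM in mutants and 15.9, 16.9 and 15.8 CPM in controls, without overlap but with mutant replicate 1 close to the controls. Its annotated exons share bases with 4 other genes, Hoxd4 among them, so its reads are uncertain.

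The middle members pattern the thorax and its limbs and ribs. Hoxd8 had 51.3, 40.5 and 34.6 CPM in mutant replicates 1 to 3, against 45.6, 50.9 and 61.5 CPM in control replicates 1 to 3, with overlap between the groups. Hoxc8, a thoracic gene that also patterns motor neurons of the forelimb, had 16.5, 20.9 and 19.7 CPM in mutants and 20.6, 17.4 and 18.7 CPM in controls. Hoxa6, next to Hoxa9 in level per kb within HoxA, had 1.74, 2.41 and 3.33 CPM in mutants and 2.24, 3.27 and 4.03 CPM in controls. The groups overlapped in each of these genes.

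Members of groups 9 and 10, genes of the lumbar level and of the limbs, were present in every library. Hoxa9, a gene also known from blood stem cells and leukaemia, had 14.8, 25.6 and 18.3 CPM in mutants and 13.9, 20.9 and 27.2 CPM in controls. Hoxa10, a regulator of the lumbar spine and the uterus and the posterior end of the HoxA range, had 5.23, 7.28 and 8.39 CPM in mutants and 5.44, 11.1 and 9.09 CPM in controls. For both genes the lowest library of each group was replicate 1. Hoxd9, which ends the HoxD range, had 14.4, 12.0 and 12.0 CPM in mutants and 14.3, 14.3 and 16.1 CPM in controls. Hoxc13, a regulator of hair keratins and nail, had 1.14, 0.585 and 0.845 CPM in mutants and 1.15, 1.09 and 1.54 CPM in controls, with mutant replicate 1 inside the control range. It stood apart from Hoxc12, its neighbour in the cluster, which had 3 counts in mutant replicate 3 and 0 elsewhere.

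The remaining expressed members overlapped between the groups. In HoxA, Hoxa5, a gene of the neck and lung, ran from 2.28 to 4.36 CPM in mutants and from 2.82 to 3.97 CPM in controls, and Hoxa7 from 5.17 to 7.02 CPM in mutants and from 5.12 to 6.59 CPM in controls. In HoxB, Hoxb3 ran from 10.1 to 14.2 CPM in mutants and from 8.13 to 16.0 CPM in controls, with 52.9% of its exon bases under the antisense gene Hoxb3os. Hoxb5 ran from 2.01 to 3.02 CPM in mutants and from 1.92 to 3.36 CPM in controls, and Hoxb7 from 1.37 to 1.95 CPM in mutants and from 1.59 to 2.43 CPM in controls. None of these HoxB genes separated the groups. In HoxC, Hoxc9 ran from 4.97 to 7.48 CPM in mutants and from 4.28 to 6.4 CPM in controls, and Hoxc10, a lumbar and hindlimb gene, from 7.65 to 10.7 CPM in mutants and from 5.83 to 14.1 CPM in controls. Of the sparse members, Hoxa4 had counts of 12, 10 and 12 in mutants and 2, 6 and 7 in controls, without overlap in CPM, and was not tested. Hoxb13 had 1 count in control replicate 3 and 0 elsewhere.

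Hoxd13 differed between libraries of the same group, and Hoxa13 and Hoxd12 had their few counts in mutant replicate 3 and control replicates 2 and 3. In Hoxd11 too, mutant replicate 3 was the highest of its group and control replicate 1 the lowest of its group. Every control library of Hoxd11 was above every mutant one, however. Hoxc13 and Hoxd10 did not show that order within both groups. Hoxd13, which shapes digits and the genital tubercle, had counts of 1, 0 and 12 in mutant replicates 1 to 3, against 0, 33 and 47 in control replicates 1 to 3. Per library total, the exact Poisson 95% interval ran from 0.33 to 1.12 CPM in mutant replicate 3, from 1.91 to 3.89 CPM in control replicate 2 and from 2.23 to 4.03 CPM in control replicate 3. These 3 intervals lay above the limit of 3 counts in the libraries at 0, mutant replicate 2 and control replicate 1. Mutant replicate 1, with 1 count, had an interval that ended at 0.364 CPM and so overlapped that of mutant replicate 3. Hoxa13 had counts of 0, 0 and 1 in mutants and 0, 8 and 8 in controls, and Hoxd12 had 0, 0 and 4 in mutants and 0, 6 and 4 in controls. The Poisson intervals overlapped among mutants for both genes, and among controls for Hoxd12. For Hoxa13 the interval of control replicate 1 overlapped that of control replicate 3 narrowly, and not that of control replicate 2.

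The same libraries were high for group 11 genes of HoxA and HoxC. Hoxc11, a hindlimb gene, had 0.604, 1.63 and 2.48 CPM in mutant replicates 1 to 3, against 0.128, 3.19 and 2.5 CPM in control replicates 1 to 3. Hoxa11, which shapes the middle limb segment, had 0.738, 0.91 and 2.9 CPM in mutants and 0.384, 1.68 and 2.18 CPM in controls. In both genes control replicate 1 was the lowest of the 6 libraries, and mutant replicate 3 was the highest of its group. Antisense reads are uncertain for Hoxa11, since 35% of its annotated exon bases lie under the antisense gene Hoxa11os and the strand setting is unknown.

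Values of 4 genes outside the clusters that mark rear body parts are set beside these as a description, since the genes were chosen after their values were seen. Tbx4, the T-box factor of the hindlimb, had 1.41, 1.24 and 3.27 CPM in mutant replicates 1 to 3, against 1.47, 5.37 and 4.99 CPM in control replicates 1 to 3. Isl1, a factor of hindlimb and genital mesenchyme, had 2.75, 4.16 and 6.28 CPM in mutants and 2.05, 5.96 and 6.79 CPM in controls. Evx2, the gene next to Hoxd13, had counts of 0, 0 and 1 in mutants and 0, 5 and 5 in controls. For Tbx4 and Isl1 mutant replicate 3 and control replicates 2 and 3 were the 3 highest libraries, and for Evx2 only control replicates 2 and 3 passed 3 counts. Pitx1, another hindlimb factor, had 1.28, 1.82 and 2.11 CPM in mutants and 0.448, 1.93 and 1.47 CPM in controls, lowest in control replicate 1 but with mutant replicate 2 above control replicate 3. Hand2, a limb and heart factor of the same list, had 12.0, 8.39 and 7.97 CPM in mutants and 11.9, 11.1 and 11.2 CPM in controls, in another order. Tbx5, the T-box factor of the forelimb, did not share this order and fell, to 8.32, 7.28 and 6.76 CPM in mutants, against 10.3, 10.9 and 9.6 CPM in controls (log2 fold change -0.46, edgeR adjusted p = 0.0389), a call lost in 6 of 14 alternatives (largest adjusted p 0.141).

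**Figure D3:**
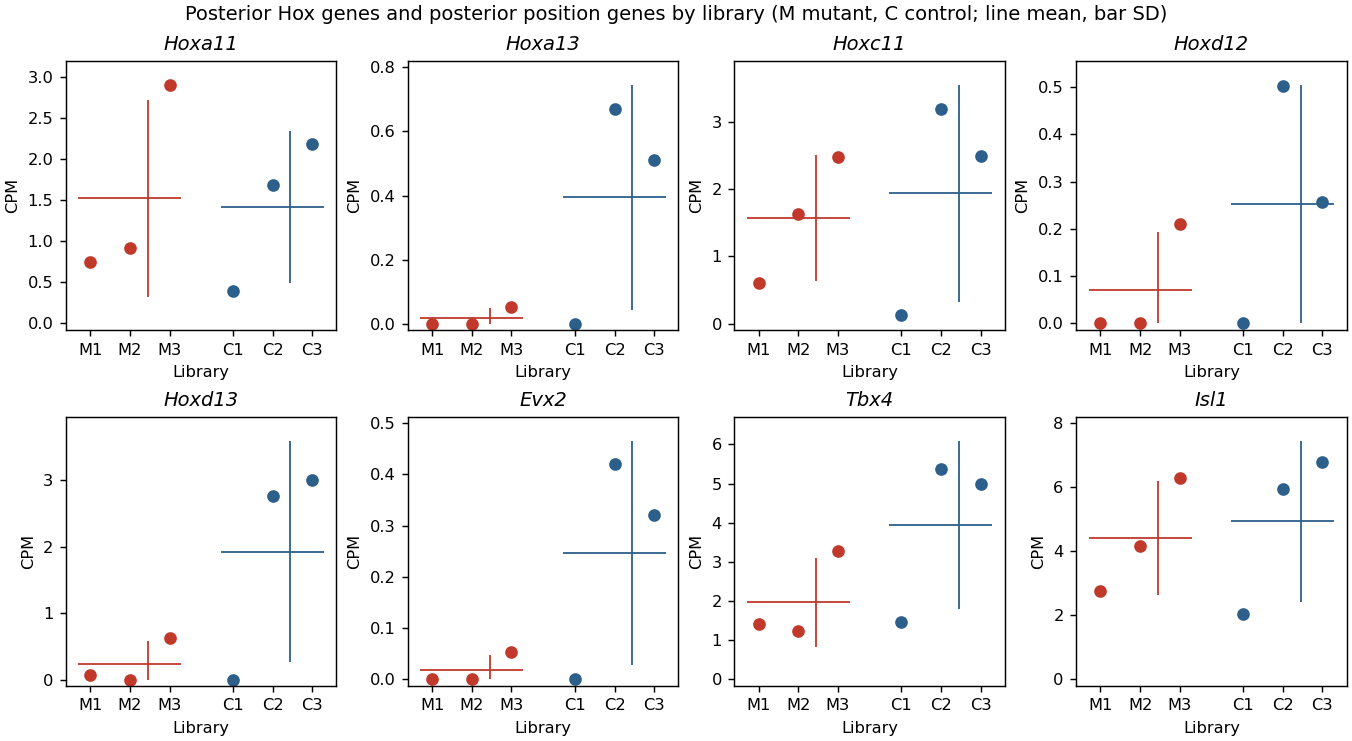
CPM per library (points) of 5 posterior Hox genes and of Evx2, Tbx4 and Isl1, for mutant replicates 1 to 3 (M1 to M3) and control replicates 1 to 3 (C1 to C3), with lines at the mean and bars of 1 SD. In Hoxd13 the library M3 has 0.634 CPM, C2 has 2.77 CPM and C3 has 3.01 CPM, and the other 3 libraries are at or below 0.0671 CPM.

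The ratio of the highest to the lowest library was largest among posterior members, several of which had few counts. This ratio includes the difference between mutants and controls, and few counts widen it. Among tested members the ratio of the highest to the lowest library had a median of 2.63 in groups 9 to 13 (11 genes, 1.35 to 24.9), 1.77 in groups 5 to 8 (11 genes, 1.26 to 4.93) and 1.73 in groups 1 to 4 (8 genes, 1.14 to 2.95). Over all tested genes the median was 1.41. The widest ratio was that of Hoxc11, and Hoxd11 followed at 13.6, both with few counts.

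Between mutant and control cells a few Hox genes changed, a share no higher than that of all tested genes. Of 30 tested members 1 rose, Hoxa2, and 3 fell, Hoxb9, Hoxc6 and Hoxd11, at an edgeR adjusted p under 0.05, and 26 were not called. That is 13.3% of tested members against 17.8% of all tested genes, with 8.63% of all genes higher and 9.13% lower. The other 8 members, among them Hoxa13, Hoxb13, Hoxd12 and Hoxd13, did not pass the filter on low counts, which asks for reads in enough libraries. Hoxd11 passed it only through the control libraries, where it was higher. Hoxb8, Hoxd10 and Hoxc13 would not have passed on the mutant libraries alone and also needed the controls, where their means were higher. These members are among the negative values below. Hoxb8, Hoxd10 and Hoxd11 are also among the members with all mutant libraries lower, so these counts lean on that choice. All mutant libraries were above all control libraries in 1 of the 30 members, against 19.2% of all tested genes, and below them in 6, against 18.6%. The median log2 fold change, mutant over control, was -0.13 for the members and 0.01 for all tested genes, and 21 of the 30 values were negative, against 49.2% over all genes. The falls numbered 5 without mutant replicate 1, where Hoxd8 and Hoxd3 were also called, and 1 without control replicate 2. They numbered 4 without control replicate 1, where Hoxd13 entered the test and was called. Hoxd13 entered only because the control library where it had 0 counts was left out, through the other controls, so that call rests on this choice. With all libraries and no filter on low counts the falls numbered 5, Hoxd8 and Hoxa13 among them, while Hoxd13 was not called (edgeR adjusted p = 0.429). With a stricter filter, at least 1 CPM in 3 libraries, 27 members were tested and the falls numbered 2, since Hoxd11 was left out. Without control replicate 3 no member rose.

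**Figure D4:**
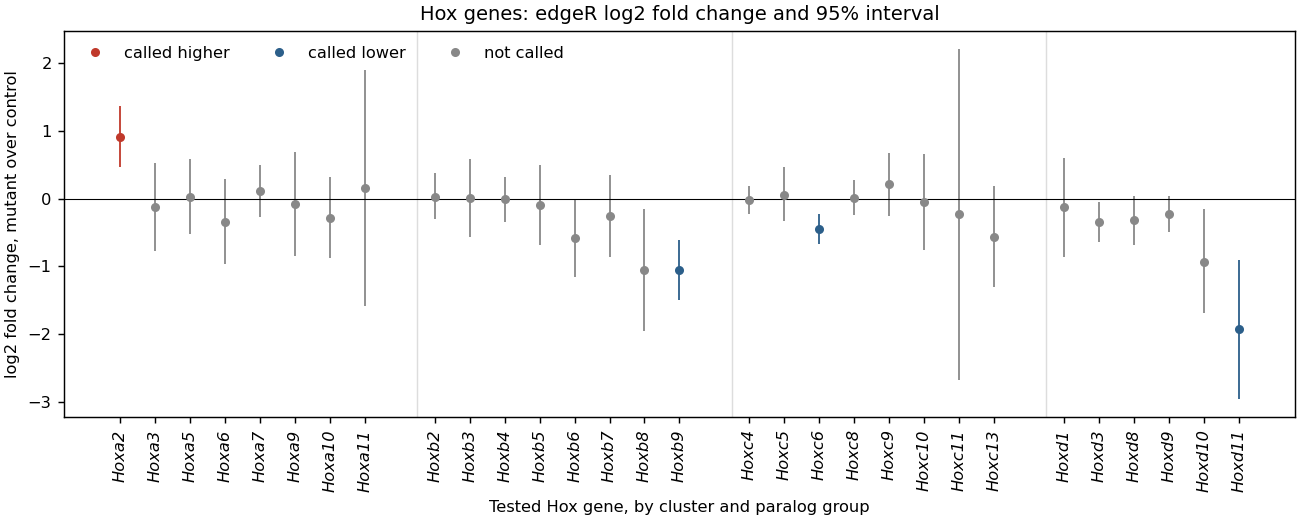
edgeR log2 fold change, mutant over control, of the 30 tested Hox genes (points) with 95% intervals (bars), ordered by cluster and paralog group and coloured by call. Hoxa2 lies above 0 at 0.91, and the 5′ members of HoxB and HoxD reach -1.05 for Hoxb9 and -1.93 for Hoxd11.

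Hoxa2, which patterns the second branchial arch and the hindbrain and is the anterior end of the expressed HoxA range, rose in mutant cells. It had 4.03, 4.68 and 4.65 CPM in mutant replicates 1 to 3, against 2.24, 2.85 and 2.05 CPM in control replicates 1 to 3. Every mutant library was above every control library. The log2 fold change was 0.91 (95% interval 0.46 to 1.37, edgeR adjusted p = 0.0117), and the adjusted p was 0.0523 without control replicate 3. Of its annotated exon bases 15% are shared with Gm28308, a coding gene on the same strand that matched no row, so the reads in that stretch cannot be assigned to one of them. Hoxa3, the next gene of the cluster, had 1.61, 2.54 and 3.64 CPM in mutants and 2.63, 3.61 and 2.43 CPM in controls, with overlap.

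Hoxb9, a gene of the thoracic and lumbar level and the posterior end of the expressed HoxB range, fell in mutant cells. It had 7.78, 8.06 and 7.07 CPM in mutant replicates 1 to 3, against 20.9, 11.3 and 14.9 CPM in control replicates 1 to 3. The mutant libraries lay close together and below every control, and control replicate 1 was the highest of the 6. The log2 fold change was -1.05 (95% interval -1.49 to -0.61, edgeR adjusted p = 0.00706), and the call held in all 14 alternatives, with adjusted p-values from 3.85e-10 to 0.0377. No other annotated gene shares its exon bases.

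The neighbours of Hoxb9 on the 3′ side were not called. Hoxb8 had 0.671, 0.325 and 0.581 CPM in mutants and 1.6, 0.839 and 0.832 CPM in controls, without overlap (log2 fold change -1.05, edgeR adjusted p = 0.0994). Its counts were few, and it needed the control libraries to pass the filter on low counts. Hoxb6 had 3.09, 2.08 and 2.11 CPM in mutants and 4.8, 2.94 and 3.07 CPM in controls, with overlap (log2 fold change -0.58, edgeR adjusted p = 0.14). Control replicate 1 was the highest library for Hoxb6, Hoxb7, Hoxb8 and Hoxb9 alike. Further 3′, none of Hoxb2, Hoxb3, Hoxb4 and Hoxb5 was called, and their groups overlapped. The difference between the 5′ and 3′ members of HoxB was not tested.

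Hoxc6, a gene of the upper thorax, fell by a small and even amount. It had 15.1, 15.9 and 15.0 CPM in mutant replicates 1 to 3, against 20.0, 22.5 and 20.6 CPM in control replicates 1 to 3. All mutant libraries lay below all controls, and within each group the values were close. The log2 fold change was -0.45 (95% interval -0.67 to -0.23, edgeR adjusted p = 0.0111), and the adjusted p was 0.0508 without control replicate 2. Its neighbours Hoxc4, Hoxc5 and Hoxc8 were not called, and Hoxc5 had 4.7, 4.94 and 4.01 CPM in mutants and 3.91, 4.53 and 4.61 CPM in controls, with overlap. Whether Hoxc6 differed from them in its change was not tested.

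Hoxd11, which shapes the forearm and the sacral spine, had the largest fall of a tested member. Its counts were few, at 4, 2 and 10 in mutant replicates 1 to 3 and 15, 21 and 17 in control replicates 1 to 3. It passed the filter on low counts only through the control libraries, where it was higher, so its place among the tested members depends on them. It had 0.268, 0.13 and 0.528 CPM in mutant replicates 1 to 3, against 0.961, 1.76 and 1.09 CPM in control replicates 1 to 3. The groups did not overlap. The log2 fold change was -1.93 (95% interval -2.96 to -0.90, edgeR adjusted p = 0.0162), and the adjusted p was 0.0657 without control replicate 2. The value was -2.6 without mutant replicate 3 and ranged from there to -1.59 over the 13 alternatives in which Hoxd11 was tested. With a filter of at least 1 CPM in 3 libraries it was not tested. Exon bases amounting to 10.8% of the gene are shared with Gm28309, which matched no row. Hoxd10, its 3′ neighbour, had 0.47, 0.52 and 0.686 CPM in mutants and 1.02, 0.923 and 1.28 CPM in controls, without overlap, and was not called (log2 fold change -0.93, edgeR adjusted p = 0.087). All 6 tested HoxD members had negative values, with a median of -0.33, against medians of -0.03 in HoxA, -0.17 in HoxB and -0.04 in HoxC. Hoxd10, like Hoxd11, needed the control libraries to enter the test.

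**Figure D5:**
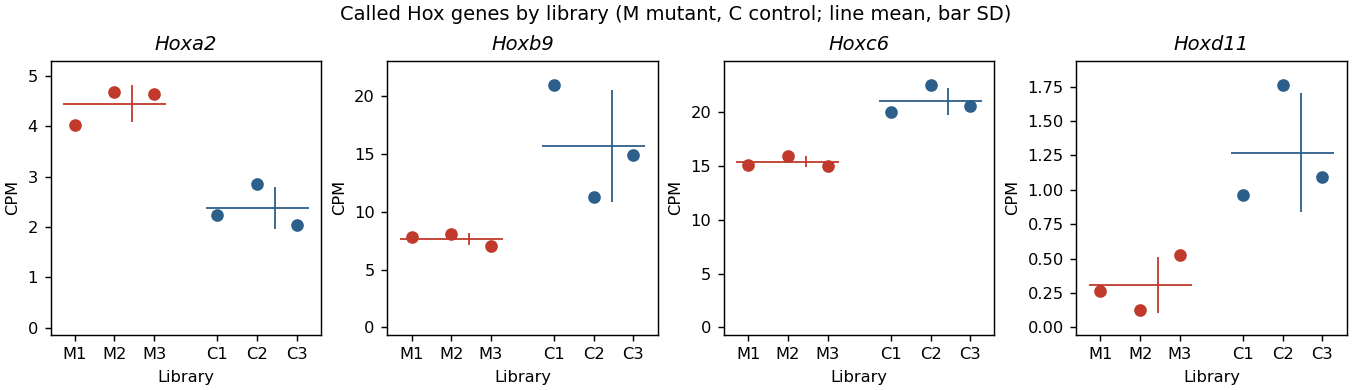
CPM per library (points) of the 4 called Hox genes, for mutant replicates 1 to 3 (M1 to M3) and control replicates 1 to 3 (C1 to C3), with lines at the mean and bars of 1 SD. The groups do not overlap in any of the 4, and Hoxb9 spreads from 7.07 to 8.06 CPM among mutants and from 11.3 to 20.9 CPM among controls.

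The 26 members that were not called had log2 fold changes between -1.05 and 0.21. Their 95% intervals had a median width of 0.58 to either side, and for 20 of them the interval excluded a 2-fold change in either direction. The interval was widest for the posterior genes Hoxc11 and Hoxa11.

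Summed marker levels of 6 other cell types did not overlap between the groups, although few of the smooth muscle, adipocyte and Schwann cell markers were called. Summed skeletal muscle markers ran from 209.9 to 318.9 CPM in mutants and from 80.8 to 107.7 CPM in controls, and summed endothelial markers from 275.5 to 380.4 CPM in mutants and from 165.7 to 201.1 CPM in controls. Summed keratinocyte markers lay between 1046.7 and 1316.9 CPM in mutants and between 596.8 and 905.7 CPM in controls. Summed Schwann cell markers lay between 161.6 and 203.2 CPM in mutants and between 210.0 and 244.4 CPM in controls. Summed smooth muscle markers lay between 475.7 and 703.3 CPM in mutants and between 787.1 and 1070.5 CPM in controls, and summed adipocyte markers between 769.2 and 1460.3 CPM in mutants and between 551.1 and 755.7 CPM in controls. Lpl, at 650.2, 890.8 and 507.1 CPM in mutants and 452.0, 377.9 and 494.8 CPM in controls, made up most of the adipocyte sum and was not called. The part of these markers in the Hox calls was not tested.

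Noncoding genes of the clusters were sparse. Of 17 matched genes 8 were tested, 1 rose and none fell, with a median log2 fold change of 0.19. Of all tested genes 8.63% were higher and 9.13% lower. Hoxaas2, an antisense gene whose exons overlap those of Hoxa3, rose to 1.88, 1.17 and 1.48 CPM in mutants, against 0.512, 0.671 and 0.576 CPM in controls (log2 fold change 1.36, edgeR adjusted p = 0.0171). Since the strand setting is unknown, its reads and those of Hoxa3 cannot be told apart where their exons overlap. Its call was lost with DESeq2 and without mutant replicate 1 or 3 or control replicate 3 (largest adjusted p 0.0641). Hotair, a noncoding gene of the posterior HoxC cluster, had at most 0.264 CPM in mutants and 0.42 CPM in controls. The microRNA rows Mir10a, Mir196a-1, Mir196a-2, Mir196b and Mir615 were at 0 in all libraries.

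Most TALE cofactors, with which Hox proteins bind DNA, were not called. Of 9 tested genes 1 fell and none rose, with a median log2 fold change of 0.05, where 9.13% of all tested genes were lower and 8.63% higher. Pknox1, a partner of Pbx, fell to 32.4, 28.3 and 30.3 CPM in mutants, against 35.4, 40.3 and 35.7 CPM in controls (log2 fold change -0.29, edgeR adjusted p = 0.0442), a call lost in 7 of 14 alternatives (largest adjusted p 0.166). Meis1, which binds beside Hox and Pbx proteins, had 77.8 ± 2.53 CPM in mutants and 82.3 ± 6.13 CPM in controls (SD, n = 3 each) and was not called.

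Of 31 tested regulators that act on the clusters 5 rose and 5 fell, with a median log2 fold change of -0.08, where 8.63% of all tested genes were higher and 9.13% lower. Aldh1a2, which makes retinoic acid, rose to 12.2, 9.75 and 11.0 CPM in mutants, against 4.93, 6.96 and 4.99 CPM in controls (log2 fold change 0.97, edgeR adjusted p = 0.00315). Aldh1a3, a related enzyme, rose by 0.57 on the log2 scale (edgeR adjusted p = 0.00966), and the retinoic acid receptor gene Rara by 0.31 (edgeR adjusted p = 0.00967). Other retinoic acid genes of the list were not called. Among them were the receptor genes Rarb and Rarg, the latter at -0.23 on the log2 scale (edgeR adjusted p = 0.0722). Aldh1a1 and Cyp26b1, which breaks retinoic acid down, were not called either. Among Polycomb genes Pcgf2 rose, to 73.7 ± 1.8 CPM in mutants, against 55.1 ± 2.25 CPM in controls (log2 fold change 0.42, edgeR adjusted p = 0.00329). Ezh2, the histone methyltransferase of a Polycomb complex, fell to 48.5 ± 3.48 CPM in mutants, against 66.3 ± 5.41 CPM in controls (log2 fold change -0.45, edgeR adjusted p = 0.00563). Cbx8, a reader of its mark, fell by 0.66 on the log2 scale (edgeR adjusted p = 0.00768), and Gdf11, a ligand that sets the trunk to tail transition, fell by 0.44 (edgeR adjusted p = 0.0108). Cdx2 and Cdx4 were at 0 in all libraries.

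Of 33 other tested genes of body position 5 rose and 4 fell, with a median log2 fold change of -0.09, beside the same 8.63% and 9.13% of all tested genes. Pax9, a factor of the sclerotome and pharynx, rose to 1.81, 1.63 and 1.16 CPM in mutants, against 0.32, 0.755 and 0.384 CPM in controls (log2 fold change 1.68, edgeR adjusted p = 0.0129, and 0.0608 without control replicate 3). Nr2f1, a nuclear receptor, rose by 0.51 on the log2 scale (edgeR adjusted p = 0.0131), a call lost without mutant replicate 3 or control replicate 2 (largest adjusted p 0.061). En1, which marks a dermal lineage of the dorsal trunk, fell to 16.2, 14.2 and 15.2 CPM in mutants, against 20.2, 23.6 and 19.7 CPM in controls (log2 fold change -0.48, edgeR adjusted p = 0.0133, and 0.0625 without control replicate 2).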

How the data were processed

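RNA of sorted Nestin-GFP-positive cells was sequenced in 6 libraries, 1 per mouse. The authors deposited whole-number read counts per gene. The submitters' processing notes name mm9 as the build, and name DESeq2, HTSeq 0.5.3, TopHat2 2.0.4, cutadapt 1.1 and FastQC with no role or order. No source used here gives the strand setting of the counting.

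Each file held 37991 gene rows and 5 rows naming no gene, which took 36.9% to 41.7% of the listed reads and stayed out. Symbols matched 32919 rows by identifier. GENCODE M21, of a later build, gave gene types and exon lengths. The fit used edgeR (version 4.0.16, R version 4.3.3): TMM scaling, filterByExpr (at least 10 counts, total at least 15), and the robust quasi-likelihood F test of group alone over 15035 genes. A gene was called at a Benjamini-Hochberg adjusted p under 0.05, and intervals are at the 95% level. Alternatives used DESeq2 1.42.0, limma 3.58.1, other scalings and filters, a replicate term, and each library left out.

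The Hox members and the other gene lists were chosen with earlier results of these data known. The rule named every member, with every library's value for called members, the 3 highest per cluster by CPM per kb, and the members at each end of a cluster's range. It also named up to 4 called genes per pathway list, by smallest adjusted p (the 2 most abundant where none was called), and per cell type list the most abundant gene and the called gene with the smallest adjusted p. Meis1, Hand2, Tbx4, Tbx5, Isl1, Evx2, Pitx1, Hotair, Rara, Aldh1a3 and Gdf11 fall outside it and were chosen after their values were seen. So do Rarb, Rarg, Aldh1a1 and Cyp26b1. Some genes that the rule names are not reported here. The alternatives on gene length and shared exons were added after the data were seen.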

Additional observations from a re-analysis of the deposited data

How the results depend on the processing

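Rarg, printed at -0.23, was not followed over the alternatives. No other gene whose own log2 fold change is printed in this report changed its sign under any alternative run. Other named genes, some with values near 0, were not followed in this way. The near-zero medians of regulators, position and flanking genes did change sign when 1 library was left out. With no filter on low counts 5 Hox members were lower and the median was -0.24. The median was -0.07 with limma-voom, and -0.26 with no member higher over members sharing no exon bases with another gene, an alternative chosen after seeing the data. The expressed count was 14 at 5 CPM. Cofactors called lower numbered 0 with DESeq2, limma-voom and the replicate block. The regulators' median was -0.01 with no filter. Position genes called higher numbered 3 with library totals, limma-voom or no robust fitting, those lower 2 with DESeq2, and their median was 0 with limma-voom. Flanking genes called lower numbered 1 with library totals, DESeq2 or limma-voom, and noncoding genes called higher 0 with DESeq2. The cause was not tested. Leaving out 1 library at a time gave 658 to 1199 genes higher and 753 to 1500 lower among all genes, against 1298 and 1372 with all libraries. For Hox it gave 0 to 1 higher, 1 to 5 lower, a median of -0.32 to -0.06 and 25 to 29 expressed. It gave cofactors 0 to 1 lower with a median of 0.03 to 0.07, and regulators 4 to 5 higher, 4 to 5 lower and a median of -0.08 to 0.01. Position genes had 2 to 4 higher, 1 to 5 lower and a median of -0.03 to 0.01, flanking genes 1 to 3 lower and a median of -0.05 to 0.07, and noncoding genes 0 to 1 higher and a median of 0.02 to 0.29. The groups share replicate numbers, but same-numbered libraries correlated at 0.12, -0.03 and -0.09 and not every library correlated best with its own number, so the samples share only a number. With the replicate block 1328 genes were higher and 1439 lower, and Hox had 1 higher and 3 lower with a median of -0.11.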

Other observations

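Of 17 tested genes that border the 4 Hox clusters 1 rose and 2 fell, with a median log2 fold change of -0.02, where 17.8% of all tested genes were called. Nfe2l2, the oxidative stress factor some way from the HoxD cluster, fell to 39.2, 32.6 and 32.6 CPM in mutants, against 55.0, 58.4 and 57.0 CPM in controls (log2 fold change -0.71, edgeR adjusted p = 0.00049). Lnpk, a gene of the endoplasmic reticulum on the same side of HoxD as Hoxd13, fell to 29.9 ± 1.41 CPM in mutants, against 37.0 ± 3.64 CPM in controls (log2 fold change -0.31, edgeR adjusted p = 0.0397), a call lost in 7 of 14 alternatives (largest adjusted p 0.137). Calcoco1, beside HoxC, rose to 115.5 ± 10.4 CPM in mutants, against 86.9 ± 2.52 CPM in controls (log2 fold change 0.41, edgeR adjusted p = 0.00607).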
